A study of Rattus norvegicus with 10 samples.

Results

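The heat shock and DnaJ chaperone genes are the rows whose symbol begins with Hspa, Hspb, Hspd, Hspe or Hsph, with Hsp90, with Hsf and a number, or with Dnaja, Dnajb or Dnajc and a number, together with Bag3 and St13. They number 64 of the 9003 genes in the deposited table. They were measured by RNA-seq in M2 macrophages sorted from the rat spleen. The control group (n = 2) came from WKY /Ncrj rats under physiological conditions. The GN group (n = 2) came from rats of that strain with glomerulonephritis, induced with the antibody TF78 against the glomerular basement membrane, and had received no cells. The EV+ and EV- groups (n = 3 each) came from nephritic rats given human adipose-derived stem cells (ASCs) whose membranes carried the dye DiD. EV+ macrophages had taken up the dye, read as transfer of extracellular vesicles, and EV- macrophages had not. The study describes its replicates as biological. It does not state whether EV+ and EV- cells of 1 number came from the same animals, what the numbers mark, or how many animals entered a library.

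Heat shock proteins hold unfolded or newly made proteins until they reach their shape. HSP70 proteins bind exposed hydrophobic stretches in a cycle driven by ATP, J-domain (DnaJ) proteins bring the clients and start the cycle, exchange factors such as BAG3 and HSP110 end it, and HSP90 finishes the folding of kinases and receptors. When misfolded protein builds up, the transcription factor HSF1 is released, binds heat shock elements and raises a subset of these genes, led by the inducible HSP70 genes, while the cognate HSP70 and HSP90 genes are made at high levels all the time.

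Values are read counts scaled to a common total (CPM) after scaling between libraries, and 1 read was worth 0.0377 to 0.051 CPM. Libraries held 19270515 to 26617093 reads, of which 0.628% to 0.748% fell on the 64 genes. Differences are on the log2(CPM + 1) scale with their standard errors, and adjusted p-values are Benjamini-Hochberg values over all 9003 genes from limma, called below 0.1. Among macrophage markers Csf1r stood at 5800.4 to 8155 CPM and Lyz2 at 15325 to 20176 CPM, whereas Mrc1 and Cd163 reached at most 1.81 CPM each, so these defining M2 transcripts were near 0 in every library. Of the 10 macrophage markers, limma called Itgam, Adgre1 and Csf1r higher in EV+ than in control (adjusted p = 0.00323, 0.0325 and 0.0643). It also called Itgam higher in EV- (adjusted p = 0.0488) and in GN (adjusted p = 0.0126). Bulk libraries cannot tell fewer cells that express a gene from less RNA per cell.

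Transcripts of the Hspa1 genes of the HSP70 family were high in control macrophages, lower in value in GN and lowest in EV+ and EV- replicates 2 and 3, and replicate 1 of EV+ and of EV- lay well above the other replicates of its group. Hspa1l and Hspa1a passed the limma test as lower in EV+ than in control, and for Hspa1a edgeR (adjusted p = 0.141) and DESeq2 (adjusted p = 0.242) did not. Hspa1a, which encodes the main stress-inducible HSP70, measured 566 and 619 CPM in the controls, 365 and 327 CPM in GN, 285, 98.8 and 73.9 CPM in EV+ replicates 1, 2 and 3, and 525, 115 and 112 CPM in EV-. Both controls lay above every other library, both GN libraries lay above all 3 EV+ libraries, and EV- replicate 1 lay between control and GN while the other EV- libraries lay below GN. The group means were 592 ± 37.6 CPM in control (SD, n = 2), 346 ± 26.6 CPM in GN (SD, n = 2), 152 ± 115 CPM in EV+ (SD, n = 3) and 250.5 ± 237 CPM in EV- (SD, n = 3). In both EV groups the SD came close to the mean.

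Hspa1b, its near-identical neighbouring copy, measured 124 and 108 CPM in the controls, 76.5 and 64.3 CPM in GN, 70.4, 24.9 and 19.0 CPM in EV+, and 133 CPM in EV- replicate 1 against 24.8 and 28.6 CPM in EV- replicates 2 and 3. Here EV- replicate 1 was the highest of the 10 libraries, so control and EV- overlapped. Reads that fit both copies cannot be assigned to either with certainty, and the 2 genes are best read together. Hspa1l, an HSP70 gene of the same cluster best known from the testis, measured 9.36 and 7.30 CPM in the controls, 3.59 and 3.69 CPM in GN, 2.23, 0.716 and 0.669 CPM in EV+, and 5.10, 1.22 and 1.01 CPM in EV-. Both controls again exceeded all other libraries. The kit did not mark the strand, so reads shared by overlapping genes of opposite strands cannot be told apart.

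Hspa1l was lower than in control in EV+ (a log2 difference of -2.14 ± 0.42, limma adjusted p = 0.0143) and in EV- (-1.62 ± 0.42, limma adjusted p = 0.0737). Hspa1a was lower in EV+ than in control (-2.20 ± 0.57, limma adjusted p = 0.0666), and the mean of the controls was 3.88 times that of EV+. In EV- the Hspa1a difference from control was -1.64 ± 0.57 (limma adjusted p = 0.211) and did not pass. Hspa1b differed by -1.81 ± 0.58 in EV+ (limma adjusted p = 0.144) and by -1.32 ± 0.58 in EV- (limma adjusted p = 0.341), neither of which passed. With a replicate block the EV+ difference of Hspa1b was -1.46 ± 0.37 and passed (limma adjusted p = 0.0629).

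**Figure D1:**
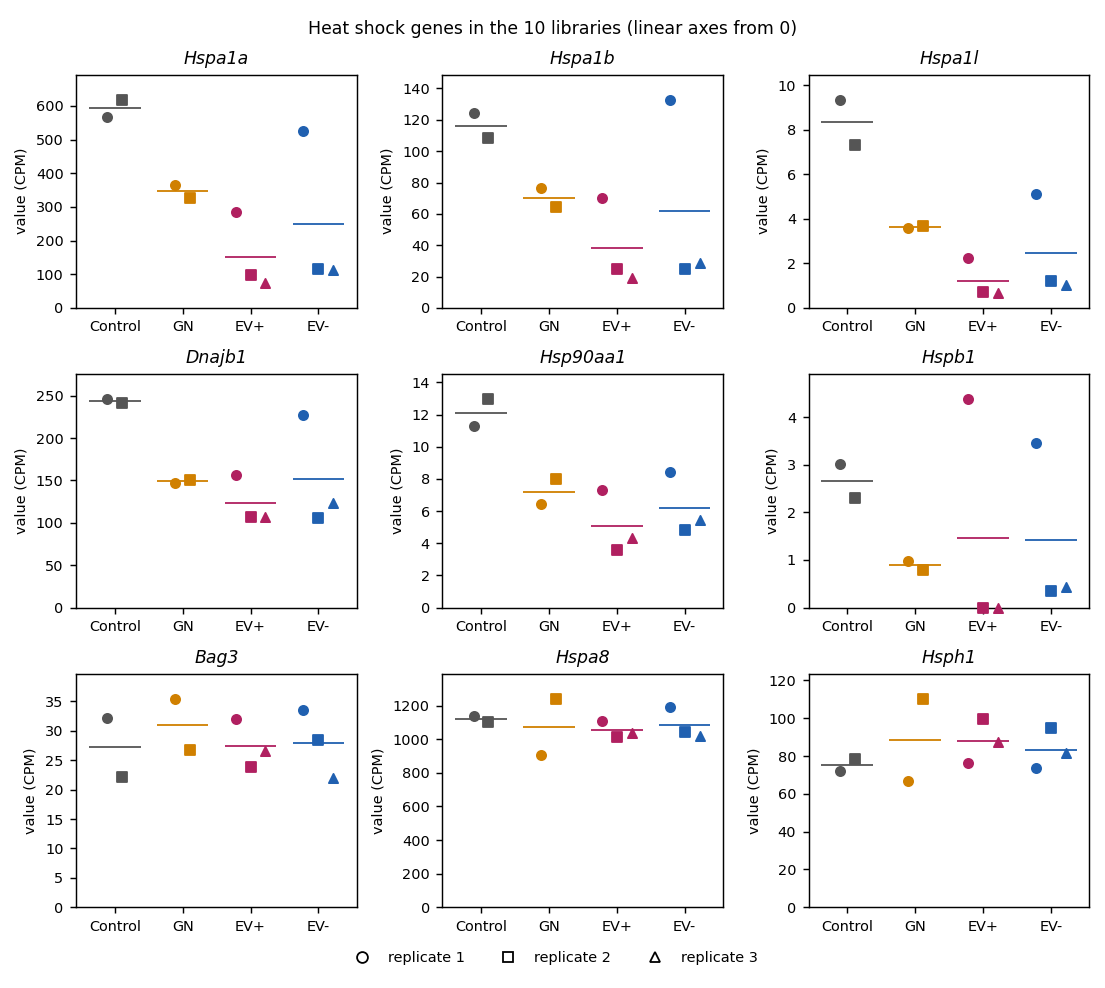
CPM of 9 genes in the 10 libraries on linear axes from 0, by group, with circles, squares and triangles for replicates 1, 2 and 3 and a line at each group mean. Hspa1a, Hspa1b, Hspa1l, Dnajb1, Hsp90aa1 and Hspb1 put EV+ and EV- replicate 1 above replicates 2 and 3, Hspa8 stayed between 907 and 1240 CPM, and Hsph1 was lowest in replicate 1 of each group.

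J-domain proteins select clients for HSP70. Dnajb1 (HSP40), the inducible partner of HSP70, measured 246 and 242 CPM in the controls, 148 and 151 CPM in GN, 157, 107 and 107 CPM in EV+, and 227, 106 and 124 CPM in EV-. Controls stood above all other libraries and EV- replicate 1 came next. It was lower in EV+ than in control (-0.999 ± 0.239, limma adjusted p = 0.0463), and the EV- difference of -0.76 ± 0.24 did not pass (limma adjusted p = 0.159). Dnajb4, a related class B protein that is also heat-inducible, measured 32.9 and 29.2 CPM in the controls, 18.1 and 25.3 CPM in GN, 19.4, 16.8 and 19.5 CPM in EV+, and 18.7, 18.1 and 22.3 CPM in EV-. Its replicates 1 did not stand apart, and both controls exceeded all other libraries. Dnajb4 was lower in EV+ (-0.71 ± 0.16, limma adjusted p = 0.0315) and in EV- (-0.63 ± 0.16, limma adjusted p = 0.0683) than in control.

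In the limma fit of all 10 libraries none of the other 35 J-domain genes passed in a group comparison. DESeq2 in addition called Dnajb13 lower in EV+ (-0.79 ± 0.27, adjusted p = 0.0697) and Dnajb14 higher in EV+ (0.62 ± 0.22, adjusted p = 0.0778) and in EV- (0.65 ± 0.22, adjusted p = 0.0646). Limma gave Dnajb14 an adjusted p of 0.125 in EV+ and 0.122 in EV-, and without the intensity trend it called Dnajb14 in EV+ (adjusted p = 0.0988). With a replicate block, Dnajc10, a J-domain protein of the endoplasmic reticulum, was higher in EV+ than in control (0.39 ± 0.10, limma adjusted p = 0.0682). Of the 22 Dnajc genes, whose proteins take HSP70 to particular compartments and clients, 0 passed by limma in EV+ against control, with 2 at an unadjusted p under 0.05 and a median difference of -0.0047. Over all genes, 1350 of 9003 had an unadjusted limma p under 0.05 in that comparison. Dnaja1, a farnesylated cytosolic J-domain protein, measured 158 and 129.6 CPM in the controls, 115 and 154 CPM in GN, 156, 126 and 149.7 CPM in EV+, and 142, 132 and 169 CPM in EV-. Its groups overlapped throughout. The lowest mean CPM of the 64 genes was that of Dnajb3 (0.719, not corrected for length), where single libraries rest on few reads.

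HSP90 comes in 2 cytosolic forms, the inducible Hsp90aa1 and the constitutive Hsp90ab1, and in Hsp90b1 (GRP94) of the endoplasmic reticulum. Hsp90aa1 measured 11.3 and 13.0 CPM in the controls, 6.43 and 7.98 CPM in GN, 7.31, 3.58 and 4.33 CPM in EV+, and 8.41, 4.79 and 5.45 CPM in EV-. Both controls lay above all other libraries, and it was lower in EV+ than in control (-1.16 ± 0.27, limma adjusted p = 0.0371). The EV- difference was -0.89 ± 0.27 (limma adjusted p = 0.130). Hsp90ab1, with the highest mean CPM of the 64 genes (1098, not corrected for length), measured 983 and 1047 CPM in the controls, 941 and 1244 CPM in GN, 1139, 1172 and 1086 CPM in EV+, and 1111, 1199.7 and 1054 CPM in EV-. The controls were below all 6 EV libraries, by a margin smaller than the spread within GN. Hsp90b1 measured 776 and 799.7 CPM in the controls, 655 and 831 CPM in GN, 847, 923 and 764 CPM in EV+, and 897, 899 and 771 CPM in EV-, with overlapping groups.

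Among the small heat shock proteins, which hold denatured protein without ATP, Hspb1 (HSP27) was scarce and uneven. It measured 3.005 and 2.31 CPM in the controls, 0.986 and 0.791 CPM in GN, 4.38 CPM in EV+ replicate 1, 0 in EV+ replicates 2 and 3, where 3 reads would be 0.126 and 0.134 CPM, and 3.45, 0.357 and 0.428 CPM in EV-. The highest and the lowest libraries were thus both EV+, and no group difference passed. The exchange factor gene Bag3, an HSF1 target, measured 32.2 and 22.2 CPM in the controls, 35.4 and 26.7 CPM in GN, 32.1, 23.8 and 26.6 CPM in EV+, and 33.5, 28.5 and 22.0 CPM in EV-. Replicate 1 was the highest of its group in all 4 groups, and the group means did not differ beyond that spread. Hsph1 (HSP110) ran the other way, at 71.8 and 78.2 CPM in the controls, 67.1 and 110.2 CPM in GN, 76.4, 99.8 and 87.3 CPM in EV+, and 73.6, 94.7 and 81.8 CPM in EV-. Replicate 1 was the lowest of its group in all 4 groups.

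Cognate chaperones are made without stress. Hspa8 (HSC70), the cognate cytosolic HSP70, measured 1139 and 1101 CPM in the controls, 907 and 1240 CPM in GN, 1111, 1015 and 1039.7 CPM in EV+, and 1189.7, 1043 and 1017 CPM in EV-, so its groups overlapped. Hspa5 (BiP), the HSP70 of the endoplasmic reticulum, measured 1032 and 947 CPM in the controls, 720.5 and 889 CPM in GN, 783, 870.1 and 774 CPM in EV+, and 822, 901 and 809 CPM in EV-. The controls exceeded all other libraries, with a difference of -0.29 ± 0.09 in EV+ that did not pass by limma (adjusted p = 0.147) and passed by DESeq2 (adjusted p = 0.0723). Of the 12 chaperones of the endoplasmic reticulum in the list and the 8 of mitochondria, 0 passed by limma in EV+ or EV- against control, with 4 and 2 of the former and 0 and 0 of the latter at an unadjusted p under 0.05. Of all 9003 genes, 1350 in EV+ and 1183 in EV- were under that p by limma.

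In mitochondria, Hspa9 (mortalin) measured 85.3 and 80.4 CPM in the controls, 90.05 and 83.5 CPM in GN, 98.0, 95.6 and 74.7 CPM in EV+, and 91.5, 94.7 and 88.6 CPM in EV-. Hspd1 (HSP60) measured 119.7 and 116 CPM in the controls, 118 and 140.3 CPM in GN, 129.9, 117 and 126 CPM in EV+, and 133, 120.6 and 122 CPM in EV-. Its co-chaperonin gene Hspe1 (HSP10) measured 17.9 and 20.8 CPM in the controls, 17.0 and 18.3 CPM in GN, 17.3, 11.5 and 17.2 CPM in EV+, and 17.4, 14.2 and 16.5 CPM in EV-. Only Hspe1 had both controls above all 6 EV libraries, and none of these genes passed. Hsf1, the main heat shock factor, measured 37.3 and 34.3 CPM in the controls, 37.0 and 40.0 CPM in GN, 36.4, 44.1 and 36.9 CPM in EV+, and 42.4, 41.0 and 39.9 CPM in EV-. Hsf2 measured 4.43 and 4.54 CPM in the controls, 6.07 and 6.40 CPM in GN, 5.90, 5.43 and 6.47 CPM in EV+, and 5.73, 6.47 and 5.02 CPM in EV-. Both controls were the lowest libraries for Hsf2, though no test passed, and a transcript level does not report the activity of the factor. St13 (HIP), which slows the release of HSP70 clients, ranged from 33.7 to 47.3 CPM with overlapping groups.

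**Figure D2:**
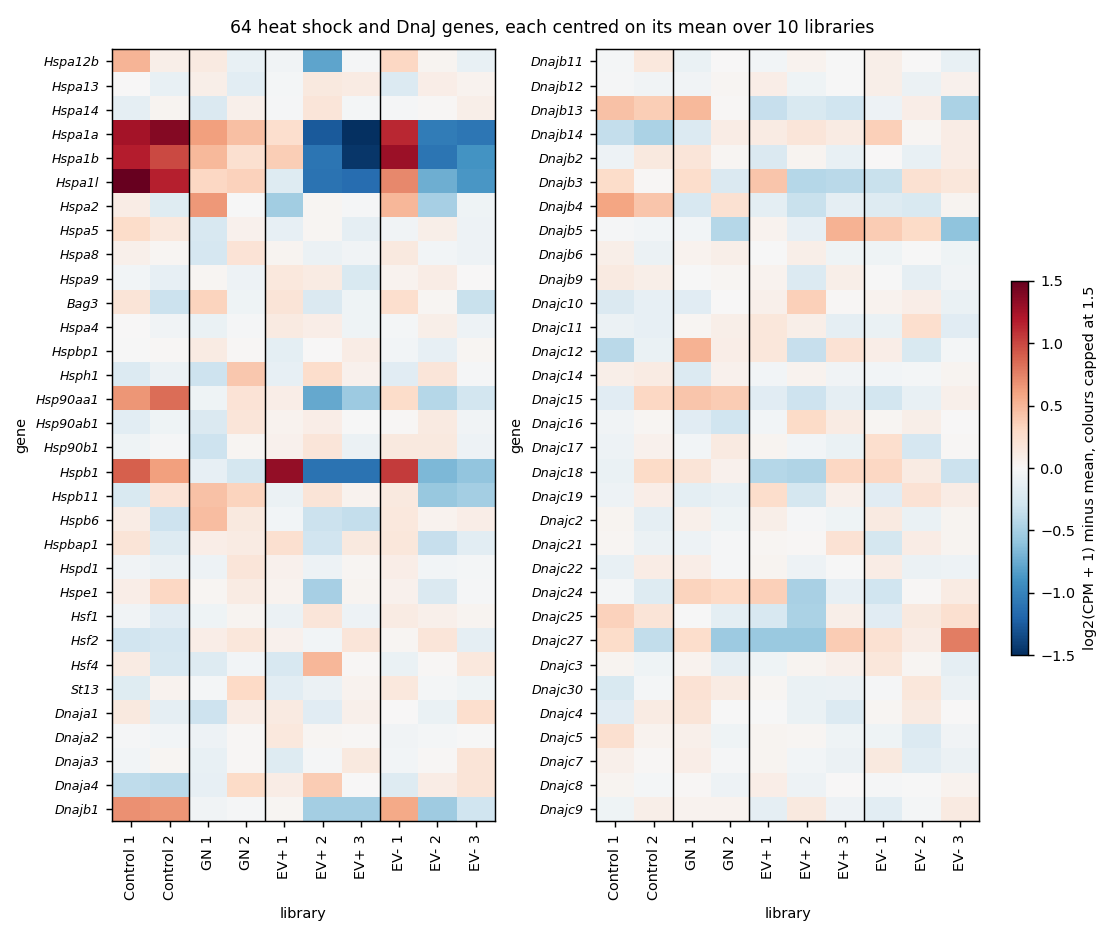
Each of the 64 genes (rows) in the 10 libraries (columns), as log2(CPM + 1) minus the gene's mean over the libraries, with colours capped at 1.5 and vertical lines between groups. The strongest colours are in Hspa1a, Hspa1b, Hspa1l and Hspb1, followed by Hsp90aa1, Dnajb1 and a few genes at low CPM such as Dnajc27, whereas most rows are pale.

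Heat shock elements are runs of the unit GAA and its complement TTC, each separated by a pair of free bases. Promoter windows of 250 bases upstream of the RefSeq start (build GRCr8) were matched for 49 of the 64 genes, and Hspa1b, Hsp90aa1, Dnajb4, Hsf1 and St13 were among those without one. Both strands were searched for GAANNTTC or TTCNNGAA, each of which reads the same on either strand, and then for 3 units in a row, GAANNTTCNNGAA or its complement TTCNNGAANNTTC, which contain the shorter motifs. A pair of units occurred in 14 of 49 windows (28.6%) against 13.5% of all 33469 windows and 10.3% of the 6970 windows of genes in the table. Triple units occurred in the windows of Hspa8, Hspd1, Hspe1 and Hsph1 (8.16%), against 0.663% of all windows. The windows of Hspd1 and Hspe1 overlap on opposite strands and hold the same run. These matches describe letters in a window and not binding.

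The windows below belong to 3 genes that were high in the controls and in replicate 1 of EV+ and EV- (Hspa1a, Dnajb1, Hspb1) and to 2 that were level or ran the other way (Hspa8, Hsph1), and capitals mark GAA and TTC units of a matched pair. They lie at chr20:3859506-3859755 (plus strand), chr19:41431142-41431391 (minus strand), chr12:26432302-26432551 (minus strand), chr8:50080264-50080513 (plus strand) and chr12:10427118-10427367 (plus strand), and each is written 5′ to 3′ towards the start.
Hspa1a: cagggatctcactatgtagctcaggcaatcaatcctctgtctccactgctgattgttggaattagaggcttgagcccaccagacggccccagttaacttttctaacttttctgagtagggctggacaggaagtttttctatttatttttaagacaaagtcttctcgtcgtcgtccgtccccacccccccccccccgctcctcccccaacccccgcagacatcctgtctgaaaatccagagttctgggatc
Dnajb1: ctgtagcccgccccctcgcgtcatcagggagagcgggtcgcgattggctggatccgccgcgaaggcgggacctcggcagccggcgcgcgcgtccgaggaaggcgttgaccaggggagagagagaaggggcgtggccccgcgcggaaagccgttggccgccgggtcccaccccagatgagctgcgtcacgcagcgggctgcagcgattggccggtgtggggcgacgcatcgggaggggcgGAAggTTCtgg
Hspb1: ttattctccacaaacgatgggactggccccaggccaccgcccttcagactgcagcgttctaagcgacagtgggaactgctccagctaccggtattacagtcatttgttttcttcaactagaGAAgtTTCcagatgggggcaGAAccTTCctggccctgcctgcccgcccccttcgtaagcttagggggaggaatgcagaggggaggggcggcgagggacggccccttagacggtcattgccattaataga
Hspa8: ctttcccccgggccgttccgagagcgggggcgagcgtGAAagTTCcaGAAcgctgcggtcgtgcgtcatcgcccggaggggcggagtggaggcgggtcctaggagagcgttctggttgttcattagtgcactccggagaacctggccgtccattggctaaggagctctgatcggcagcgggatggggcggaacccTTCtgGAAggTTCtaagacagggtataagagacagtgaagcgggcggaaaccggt
Hsph1: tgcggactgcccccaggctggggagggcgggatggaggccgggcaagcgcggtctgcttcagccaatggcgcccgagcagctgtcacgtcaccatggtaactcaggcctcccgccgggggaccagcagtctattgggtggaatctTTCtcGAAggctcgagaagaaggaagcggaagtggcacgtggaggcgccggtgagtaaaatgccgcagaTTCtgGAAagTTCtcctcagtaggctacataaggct
No pair in these exact letters occurred in the Hspa1a window, 1 occurred in the Dnajb1 window at 11 to 4 bases before the start, and 2 in the Hspb1 window. A single window was searched per gene, so elements outside it or before another start would be missed. Hspa1l, on the minus strand, has its window at chr20:3860224-3860473, so the RefSeq start used for Hspa1a lies downstream of the Hspa1l start. Hspa8, with its small difference, had 4 pairs that overlap into 2 runs of 3 units, and Hsph1 had 3 pairs and 1 such run. Windows with and without the exact motif thus occurred among the genes that were high in replicate 1.

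Over the 4 groups at once, limma called 1 member, Hspa1l (adjusted p = 0.0594), against a background of 2.57% of all genes. In EV+ against control it called 5 of 64, all of them lower, against 3.63% of all genes in either direction and 1.81% lower. edgeR called 4 members there and DESeq2 called 6, with Hspa1l, Dnajb4 and Hsp90aa1 called by all 3 tools. In EV- against control it called 2 of 64, both lower, against 2.84% and 1.56%. The calls did not extend to the family: the median difference of the 64 genes from control was 0.0021 in EV+ and 0.0099 in EV-, and 31 and 30 genes respectively lay below 0. A list of 15 measured HSF1 target genes holds both strongly inducible genes and abundant ones such as Hspa8, Hsp90ab1 and Hspa4. It also holds St13 and does not hold Hspa1l. Of these, 4 were called lower in EV+ (Dnajb4, Hsp90aa1, Dnajb1 and Hspa1a) and 1 in EV- (Dnajb4). In 10 members both controls lay above all 6 EV libraries, which is 15.6% of the members and 8.83% of all genes. In 5 members, Dnaja4, Dnajb14, Dnajc10, Hsf2 and Hsp90ab1, both controls lay below all 6 EV libraries, which is 7.81% of the members and 8.14% of all genes. The EV+ and EV- comparisons share the same 2 control libraries.

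Leaving out control replicate 1 removed all 5 EV+ calls, leaving out control replicate 2 kept Hspa1l alone, and leaving out EV+ replicate 2 or EV+ replicate 3 kept Hspa1l and Dnajb4 alone, with Hspa5 called in addition without EV+ replicate 2. The EV- count was 0 without either control library or EV- replicate 2, 1 without EV+ replicate 3, EV- replicate 3 or either GN library, 3 without EV+ replicate 1 or 2, and 5 without EV- replicate 1.

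In GN against control, the contrast of nephritis itself, 0 members passed by limma against 1.75% of all genes, edgeR and DESeq2 also called 0, and 7 members had an unadjusted p under 0.05, against 10.4% of all genes. The largest falls were in Hspa1l (-0.999 ± 0.457), Hspb1 (-0.95 ± 0.70) and Hspa1a (-0.77 ± 0.62), and the largest rises were in Dnajc12 (0.57 ± 0.23), Dnaja4 (0.48 ± 0.21) and Dnajc24 (0.43 ± 0.28). The spread in these standard errors is shared with the EV groups. A limma fit of the 4 control and GN libraries alone called 4 members lower in GN, against 2.12% of all genes, namely Hspa1a (-0.77 ± 0.08, adjusted p = 0.00450), Dnajb1 (-0.70 ± 0.08, adjusted p = 0.00450), Hspa1b (-0.72 ± 0.12, adjusted p = 0.0264) and Hspa1l (-0.999 ± 0.221, adjusted p = 0.0843).

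Against GN, limma called 0 members in EV+ (0.122% of all genes) and 0 in EV- (0.378%), as did edgeR and DESeq2, with 6 and 3 members at an unadjusted p under 0.05, against 7.13% and 7.85% of all genes. The Hspa1a difference of EV+ from GN was -1.43 ± 0.57 (limma adjusted p = 0.659). Between EV+ and EV-, the comparison of cells by dye uptake, 0 members passed by limma, edgeR or DESeq2, against 0.0222% of all genes, and 0 members had an unadjusted p under 0.05, against 4.57% of all genes. The largest differences were in Dnajc27 (-0.61 ± 0.30), Hspa1a (-0.56 ± 0.51) and Hspa1l (-0.52 ± 0.37) below, and in Hspb11 (0.37 ± 0.24), Hspbap1 (0.14 ± 0.17) and Dnajc10 (0.13 ± 0.10) above.

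EV+ lay below EV- at each of the 3 replicate numbers for 9 members (14.1%), against 14.3% of all genes. Hspa1a was 1 of them, with 285 against 525, 98.8 against 115 and 73.9 against 112 CPM. Blocking on the number within the 6 EV libraries alone (a replicate block), a fit added after the data were seen, limma called 1 member, Hspa1a, lower in EV+ (-0.56 ± 0.10, adjusted p = 0.0327), against 0.544% of all genes. The planned replicate block over all 10 libraries called 0 members in EV+ against EV-, and 5 of all 9003 genes.

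Among the EV libraries Hspa1a, Hspa1b, Hspa1l, Hspb1 and Dnajb1 were higher in replicate 1 and Hsph1 was lower, which passed the test in the 6 EV libraries alone and not in the fit of all 10. The contrast of replicate 1 was chosen with earlier results of these data known, so it is a description and not independent support. In the fit of all 10 libraries with group and replicate number, limma called 0 members over the numbers (0.333% of all genes), with 13 members at an unadjusted p under 0.05 (7.16% of all genes), and 0 for number 1 against the others (0.0778% of all genes). At an unadjusted p under 0.05 there were 9 members for number 1, against 6.12% of all genes. For number 1, edgeR called 0 and DESeq2 called 2, Bag3 and Hspa1l, and over the numbers edgeR called 0 and DESeq2 called 1, Hsph1. The differences were 1.33 ± 0.26 for Hspa1b (limma adjusted p = 0.150), 1.27 ± 0.27 for Hspa1a (limma adjusted p = 0.195), 1.35 ± 0.33 for Hspb1 (limma adjusted p = 0.298) and -0.29 ± 0.08 for Hsph1 (limma adjusted p = 0.491). In control and GN, replicate 1 of Hspa1a was 0.914 and 1.11 times replicate 2, so Hspa1a showed no such gap between the replicates of control or GN. Bag3 was higher and Hsph1 lower in replicate 1 than in replicate 2 in both control and GN.

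In the 6 EV libraries alone limma called 7 members for number 1 against numbers 2 and 3, against 3.95% of all genes. Error in that fit is the disagreement of EV+ and EV- within a number. Its standard errors and p-values therefore do not measure spread between replicate numbers. Hspa1a (1.96 ± 0.10, limma adjusted p = 1.27e-06), Hspa1b (1.96 ± 0.15), Hspb1 (2.05 ± 0.30), Hspa1l (1.23 ± 0.27), Dnajb1 (0.76 ± 0.09) and Hspa8 (0.16 ± 0.04) were higher in number 1, and Hsph1 (-0.27 ± 0.07) was lower. Replicate 1 of Hspa1a was 3.30 times the mean of replicates 2 and 3 in EV+ and 4.62 times in EV-. Replicate 1 was the highest of the 3 in both EV+ and EV- for 17 members (26.6%), against 15% of all genes, and 9 of these were among the 15 listed HSF1 targets. It was the lowest of the 3 in both for 5 members (7.81%), Dnaja3, Dnajc9, Hsf4, Hspa13 and Hsph1, against 15.4% of all genes.

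**Figure D3:**
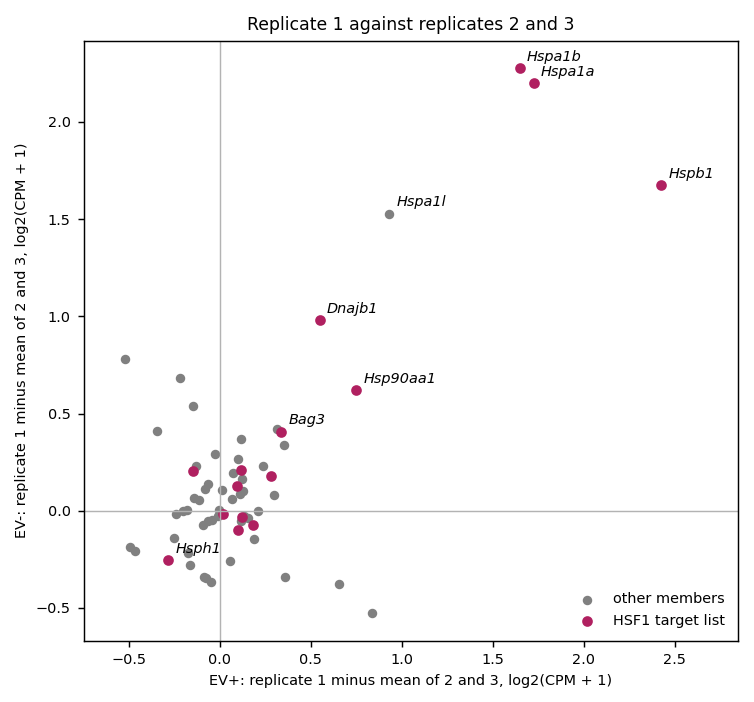
For each of the 64 genes, replicate 1 minus the mean of replicates 2 and 3 in EV+ (horizontal axis) and EV- (vertical axis), in log2(CPM + 1), with the list of HSF1 targets in red. Hspa1a, Hspa1b, Hspb1, Hspa1l, Dnajb1 and Hsp90aa1 lie to the upper right and Hsph1 lies below 0 on both axes, while most members lie near the origin.

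A single order of libraries was shared by 7 members, Dnajb1, Dnajc7, Hsp90aa1, Hspa1a, Hspa1b, Hspa1l and Hspb1. For these, all 4 control and GN libraries and replicate 1 of EV+ and EV- exceeded all 4 EV libraries numbered 2 and 3, which is 10.9% of the members and 1.67% of all genes. The order was noticed in the values and is given as a description. When both EV replicates 1 were left out, a choice made after their values were seen that also narrows the spread, limma called 4 members in GN against control (2.01% of all genes), 7 in EV+ against control (3.94%), 6 in EV- against control (2.68%), 4 in EV+ against GN (0.355%) and 3 in EV- against GN (0.778%), all of them lower. Hspa1a was then -2.00 ± 0.12 in EV+ against GN (limma adjusted p = 1.74e-05) and -1.60 ± 0.12 in EV- against GN (limma adjusted p = 0.000216).

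Transcripts of other cell types moved with some of these libraries. Skeletal muscle genes, a list of 14 written after Acta1 and Atp2a1 were seen to share the order, summed to 31.0 to 148 CPM in the 6 libraries on the high side and to 1.58 to 4.15 CPM in the 4 EV libraries numbered 2 and 3. Acta1, skeletal muscle actin, measured 10.98 and 12.0 CPM in the controls, 44.1 and 8.74 CPM in GN, 8.01, 0 and 0.491 CPM in EV+, and 7.73, 0 and 0.233 CPM in EV-. The muscle sum was highest in GN replicate 1, where Hspa1a was below both controls and EV- replicate 1. Of 10 NK and T cell markers, the sum was 904 CPM in EV- replicate 1 and 218 to 355 CPM in the other 9 libraries, where Cd8a made up most of it. Without Cd8a the sum was 571, 87.1 and 43.2 CPM in EV- replicates 1, 2 and 3, and 14.9 to 33.4 CPM in the control, GN and EV+ libraries. Cd8a itself had means of 200 CPM in control, 266 CPM in GN, 299 CPM in EV+ and 302 CPM in EV-. By limma Cd8a was higher than in control in EV+ (adjusted p = 0.0164) and EV- (adjusted p = 0.0181), and Prf1 was higher in EV- (adjusted p = 0.0980). The part of muscle, NK and T cell or macrophage transcripts in the heat shock differences was not tested.

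Immediate early genes, a list of 20 transcription factors and regulators that respond to stimulation within minutes to hours, were called lower than in control by limma in 15 genes in EV+ and 14 in EV-. Of all genes, 1.81% and 1.56% were called lower in these comparisons. In GN against control limma also called Atf3, Ier2, Jund, Zfp36 and Klf2 lower, against 1.75% of all genes called in either direction. Jun, a subunit of AP-1, measured 748 and 634 CPM in the controls, 460.3 and 419 CPM in GN, 319, 119.6 and 92.1 CPM in EV+, and 474, 151 and 119 CPM in EV-. Jun thus shared the order of Hspa1a, and was higher in replicate 1 in the fit of all 10 libraries (1.20 ± 0.19, limma adjusted p = 0.0711). The mean log2 level of the early gene list was 8.58 and 8.23 in the controls, 7.92 and 7.86 in GN, 7.30, 7.23 and 7.39 in EV+, and 7.45, 7.12 and 7.34 in EV-. That of the HSF1 target list was 6.496 and 6.45 in the controls, 6.13 and 6.30 in GN, 6.31, 5.77 and 5.79 in EV+, and 6.46, 5.88 and 5.92 in EV-.

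**Figure D4:**
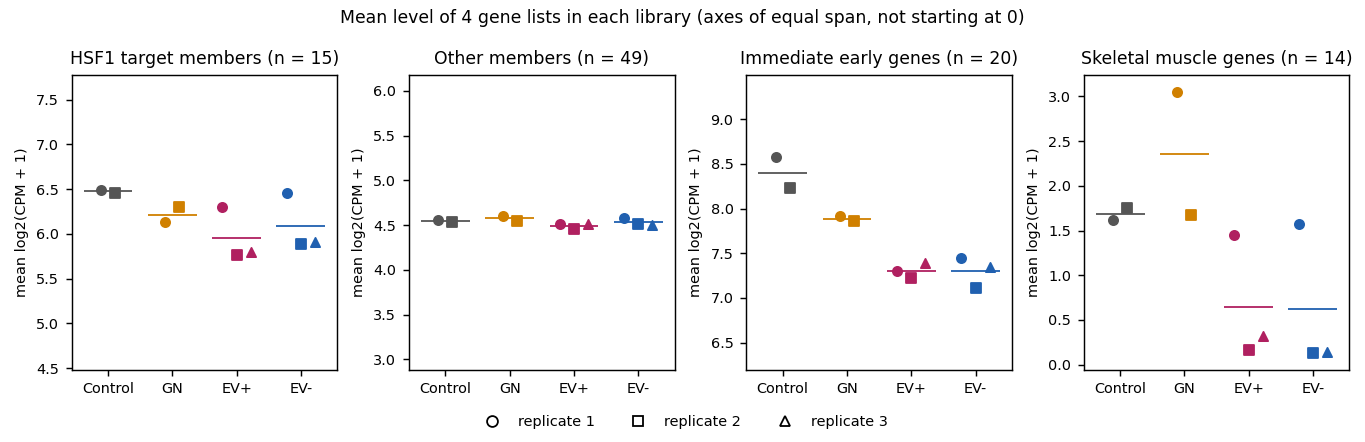
Mean log2(CPM + 1) of 4 gene lists in each library, with symbols for replicates 1, 2 and 3, a line at the group mean and vertical axes of equal span that do not start at 0. The 15 HSF1 targets and the 14 skeletal muscle genes separate replicate 1 of EV+ and EV- from replicates 2 and 3, the 49 other members stay between 4.46 and 4.61, and the 20 immediate early genes are lower in both EV groups than in control and GN.

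Other parts of the protein folding system were counted against 3.63% of all genes called in EV+ and 2.84% in EV-. At an unadjusted limma p under 0.05 against control there were 1350 of 9003 genes in EV+ and 1183 in EV-. Of 19 further HSP90 and HSP70 co-chaperones, limma called 0 in EV+ or EV- against control, with 2 in each at an unadjusted p under 0.05. Of 12 subunits of the cytosolic chaperonin TRiC and of prefoldin, Cct8 rose in EV+ against control (0.35 ± 0.09, limma adjusted p = 0.0598). Of 21 genes of the unfolded protein response, limma called 2 lower than in control in both EV groups, Atf4 and Ddit3 (CHOP). Atf4, its main translationally controlled factor, had group means of 526 ± 30.9 CPM in control (SD, n = 2) and 422 ± 9.88 CPM in GN (SD, n = 2). In EV+ and EV- the Atf4 means were 353 ± 18.02 CPM (SD, n = 3) and 391 ± 31.7 CPM (SD, n = 3). Ddit3 had means of 203 ± 2.06 CPM in control, 157 ± 5.83 CPM in GN, 156 ± 11.9 CPM in EV+ and 154 ± 11.02 CPM in EV-. Its mean in GN was thus close to those of the EV groups. Of 10 further mitochondrial chaperones and proteases, limma called 0 in either comparison, with 2 in each at an unadjusted p under 0.05.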

How the data were processed

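The authors aligned reads to rn6 with STAR 2.5.3, counted them with HTSeq 0.6.0 and scaled them with edgeR, per the submitters' processing notes and methods. The deposited signal is a table of TMM-scaled CPM (read counts over the library total) of 9003 genes, each above 1 CPM in some library, in which 18 symbols appear as dates. Every value was a whole multiple (100%, tolerance 0.1) of what 1 read is worth, so reads were recovered. Libraries of 19270515 to 26617093 reads put 3 reads at 0.113 to 0.153 CPM, which covers counting error only.

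Groups came from the sample titles. The unit is not counts, so limma 3.58.1 (intensity trend) was fitted in R 4.3.3 to log2(CPM + 1), all 10 libraries, group as the only term, or group and replicate number for replicate differences. Alternatives were a pseudocount of 0.1, no trend, edgeR 4.0.16 and DESeq2 1.42.0 on recovered reads, RLE size factors, a value of at least 1 in 2 libraries, FDR under 0.05, each library left out, the groups compared alone and a replicate block. Leaving out both EV replicates 1, the block in the EV libraries alone, numbers 1 and 2 alone and the muscle list were added after seeing the data. Scripts were tested on simulated data. Members, lists and the contrast of replicate 1 were chosen with earlier results of these data known.

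Named genes were members called in any comparison, 18 fixed members, the 3 largest rises and falls in GN against control and EV+ against EV-, and the highest and lowest member. Dnajc7, Dnajc27, Dnajb13, Dnajb14 and Dnajc10, the members listed by order of libraries, Acta1 and Atp2a1 were named after their values were seen. Genes of other lists were named where called. Same-numbered EV+ and EV- libraries deviated together weakly over all genes (r = 0.203, 0.295 and 0.122 for numbers 1, 2 and 3). Over the 64 members they did so more closely (r = 0.696, 0.405 and 0.494). Unlike numbers also went together over the members, at 0.334 for EV+ replicate 2 with EV- replicate 3 and 0.482 for EV+ replicate 3 with EV- replicate 2. The study does not state that they share animals. The replicate block, which treats them as pairs, is an alternative to the unpaired fit reported first. Same-numbered libraries of control and GN were at 0.0878 and share only a number. Promoter windows came from RefSeq (GRCr8), a different build from that of the table, so no coordinates of the table were used.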

Additional observations from a re-analysis of the deposited data

How the results depend on the processing

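Without 1 library at a time, the count was 0 to 4 over the 4 groups, 0 to 7 in EV+ against control, 0 to 5 in EV- against control, 0 to 1 in GN against control, 0 to 3 over replicate numbers and 0 to 2 for number 1. The count over the 4 groups was 4 without EV+ or EV- replicate 1 and 0 without either control or EV+ replicate 2 or 3. The 3 over replicate numbers and the 2 for number 1 arose without either control. Leaving out both EV replicates 1 gave 6, 7, 6 and 4 for the first 4 of these, 4 in EV+ against GN and 3 in EV- against GN. DESeq2 called 3 over the 4 groups, 4 in EV- against control, 1 over replicate numbers and 2 for number 1. edgeR called 1 in EV- against control. Without the intensity trend there were 0 over the 4 groups, 3 in EV+ and 0 in EV- against control. FDR under 0.05 left 0 over the 4 groups and 0 in EV- against control. A pseudocount of 0.1 gave 1 in EV- against control. The groups compared alone gave 4 in GN and 1 in EV- against control, 8 over replicate numbers and 7 for number 1. The cause was not tested where fewer libraries or a stricter threshold does not show it.

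The replicate block left 1 call over the 4 groups and 2 in EV- against control, and gave 7 in EV+ against control (6 lower and Dnajc10 higher). In EV+ against EV- it gave 0 over all 10 libraries and 1 in the 6 EV libraries alone. No called member changed direction in any alternative run. Groups of 2 or 3 libraries limit every comparison, and members near 1 CPM rest on few reads.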

Other observations

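Among the 150 genes with all 4 control and GN libraries and both EV replicates 1 above the 4 EV libraries numbered 2 and 3, Zfand2a, an arsenite-inducible zinc finger gene known as a target of HSF1, was read after its values were seen. It measured 63.4 and 76.3 CPM in the controls, 47.1 and 44.7 CPM in GN, 37.2, 25.0 and 22.5 CPM in EV+, and 53.6, 23.3 and 24.3 CPM in EV-. Fosb, a subunit of AP-1, measured 53.1 and 51.0 CPM in the controls, 26.3 and 27.2 CPM in GN, 12.8, 7.24 and 11.2 CPM in EV+, and 17.5, 6.52 and 8.75 CPM in EV-. Ranked by the ratio of the medians of the 6 high and the 4 low libraries among those with a mean of at least 5 CPM, the first 2 were the muscle genes Atp2a1 and Acta1, followed by Hspa1a (4.22), Jun (3.91) and Hspa1b (3.72).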
